A study of Bos taurus with 6 samples.

Results

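Circular RNAs (circRNAs) of genes that store, make and burn fat were followed in subcutaneous fat of Qinchuan cattle at 2 ages. The set is a list of 58 genes by broad role, and a gene need not be an enzyme of the pathway it is listed under. The roles are fat storage and release (15 genes), fatty acid and triglyceride synthesis (26) and fatty acid oxidation (17). The circRNAs of the set are those whose annotated gene name is on the list. Of the 58 genes, 37 gave a circRNA and 21 gave none, and the 37 held 105 of the 14274 circRNAs in the deposited table. Each of the 105 was annotated to 1 gene only. They had 1520 of 237621 back-splice junction reads, a share of 0.640%.

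The study compared 3 calves of 6 months with 3 adults of 24 months, with fat taken at a slaughterhouse, and the labels used here name no treatment. All 6 libraries come from whole adipose tissue, so fewer cells of a type and less RNA per cell cannot be told apart. The calf libraries held 35616 to 39573 junction reads and the adult libraries 37946 to 47298. The labels do not state that the samples of an age were prepared separately, so p-values measure the spread between these samples, which may be partly technical.

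A circRNA forms when the spliceosome joins the end of an exon or other stretch back to a point upstream, and reads over that back-splice junction count the circle and not the messenger RNA of its host gene. In a fat cell, acetyl-CoA is built into fatty acids, acyl-CoA synthetases activate them, and a chain of acyltransferases and a phosphatase load them onto glycerol to give triglyceride. Lipases and their cofactors release the fatty acids again from the lipid droplet. Mitochondria take them in through the carnitine shuttle and shorten them by beta-oxidation, a repeated round of dehydrogenation, hydration, dehydrogenation and cleavage.

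Adult fat had fewer circRNA reads of this set than calf fat. The 105 circRNAs together gave 348, 335 and 298 reads in the calf libraries (in the order calf 1, 2 and 3, kept below) and 142, 218 and 179 in the adult libraries. Every adult library was below every calf library, at 0.428 ± 0.0467% of junction reads against 0.873 ± 0.0542% (SD, n = 3 per age). Calf libraries read 35, 41 and 38 of the 105 circRNAs and adult libraries 23, 38 and 27, so adult 2 read as many as calf 3. No p is given for such sums, because the genes were chosen with earlier results of these data known.

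The difference was uneven across the 3 roles. Storage genes had 45, 57 and 42 reads in calves and 46, 42 and 31 in adults, or 1276 ± 143 and 959 ± 227 counts per 1000000 junction reads (CPM; SD, n = 3 per age), and the ages overlapped. Synthesis genes had 145, 159 and 180 reads in calves and 72, 98 and 95 in adults, or 4323 ± 636 and 2115 ± 243 CPM, a log2 ratio of the means of -1.03. Oxidation genes had 158, 119 and 76 reads in calves and 24, 78 and 53 in adults, or 3129 ± 1061 and 1203 ± 519 CPM, a log2 ratio of -1.38. In synthesis and oxidation each adult library was below each calf library, and the gap between the ages was wider in synthesis. The oxidation value rested largely on 1 gene, ACAD10: without it the log2 ratio was -0.49. Without ACSL3, the gene with the most reads in synthesis, the ratio of that role was -1.32.

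**Figure D1:**
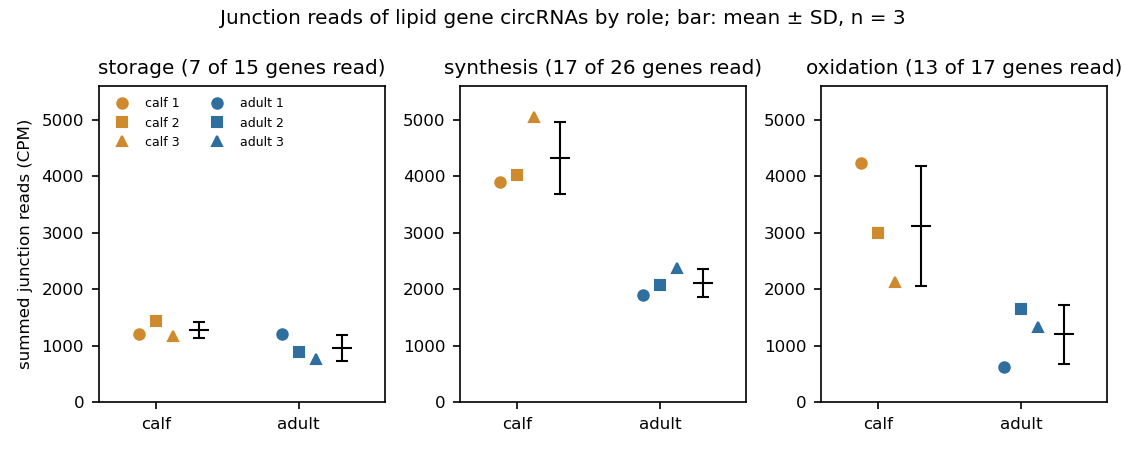
Summed junction reads of the storage, synthesis and oxidation genes in each library, in CPM of all junction reads (vertical axes from 0). Points are the 3 calf and 3 adult libraries and bars the mean ± SD. Adult synthesis sums lie between 1897 and 2377 CPM, all under the lowest calf sum of 3896 CPM, while the storage sums overlap.

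Reads were concentrated in few genes. The 12 genes with 20 or more reads over the 6 libraries held 1356 of the 1520 reads (89.2%). By mean CPM 10 of the 12 were lower in adults, against 50.1% of the 1593 host genes of that depth, and their median log2 ratio was -0.67 against -0.01 for the 1556 such host genes read at both ages. In 6 of the 12 (ACSL3, GPAM, SCAP, ACAD10, HADHA and OGDH) every adult library was below every calf library in CPM, which held for 14.4% of the host genes of that depth. The reverse was seen in 0 of the 12 and in 12.9% of those host genes.

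**Figure D2:**
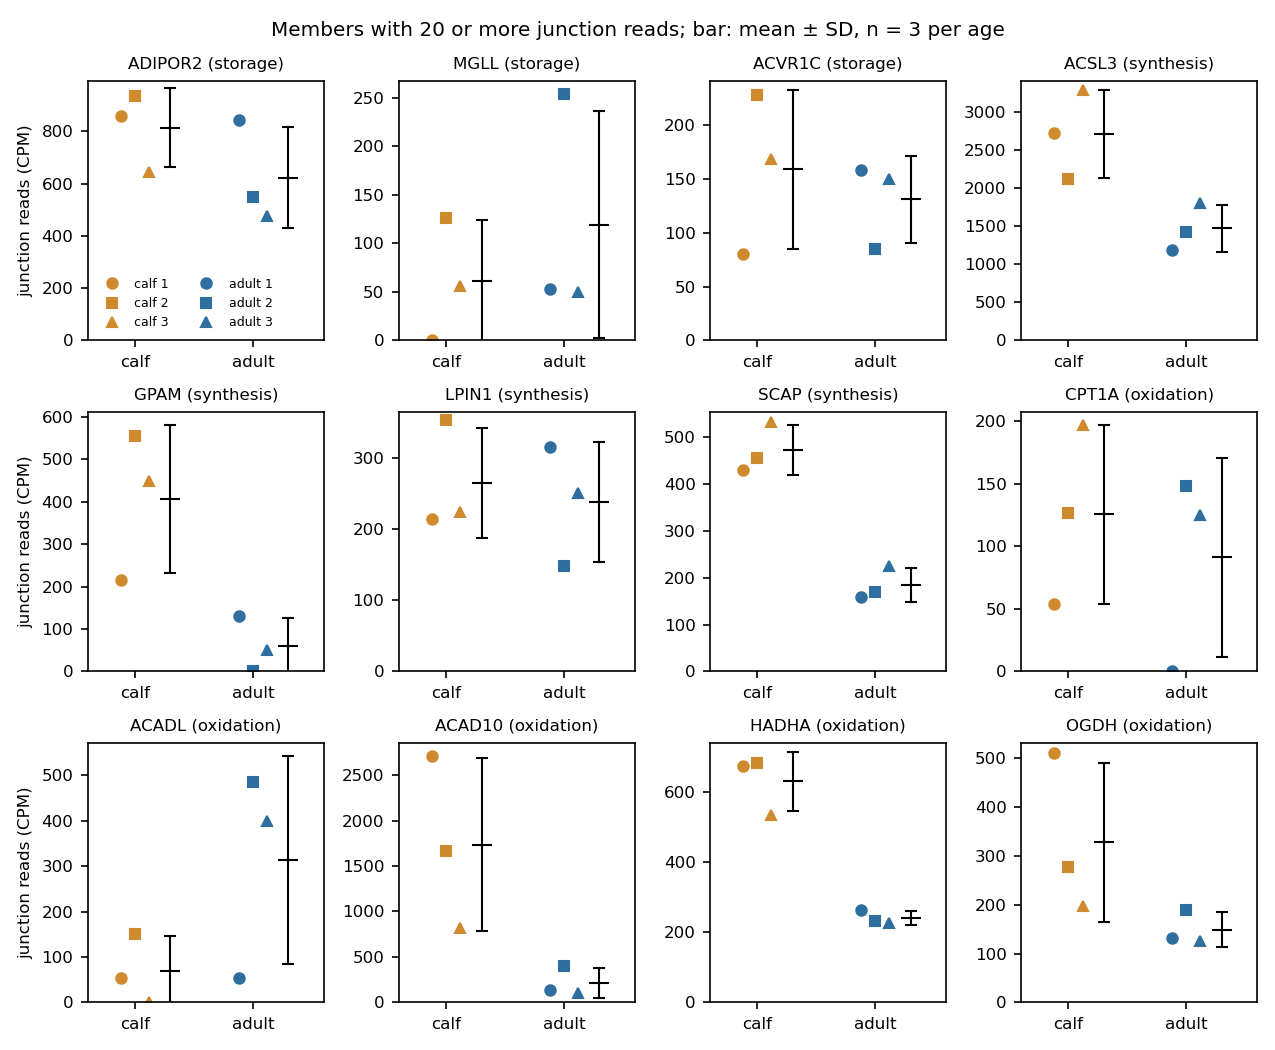
Junction reads in CPM (vertical axes from 0, scaled per panel) of the 12 genes with 20 or more reads, by age. Points are libraries and bars the mean ± SD (n = 3), with the part of a bar below 0 not drawn. HADHA and SCAP show narrow, separate ages, ACAD10 a wide calf range above the adults, and ACADL 2 adults above the calves.

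A test of the age difference was possible for the 5 genes that passed the filter on low counts: ADIPOR2, ACSL3, SCAP, ACAD10 and HADHA. ADIPOR2 and ACSL3 had the reads to clear it at either age. SCAP, ACAD10 and HADHA cleared it through the calves, where they are high, and their adult reads alone would not have. The counts and the median below are therefore not independent of the filter. In the quasi-likelihood test of edgeR, with Benjamini-Hochberg adjustment over all 719 tested host genes, 3 of the 5 were lower in adults and 0 higher. Over all tested host genes 12.4% passed in either direction, 6.54% as lower and 5.84% as higher. The median log2 change of the 5 was -1.28 against 0.01 for all tested host genes. For single circRNAs, 4 of the 105 could be tested, 2 were lower and 0 higher, where 19.0% of 663 circRNAs passed in either direction, 10.4% as lower and 8.60% as higher. The tested circles of ACAD10 and HADHA also cleared the filter only through the calves.

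Among storage and release genes, ADIPOR2 codes for a receptor of adiponectin, a hormone that fat cells secrete. Its 3 circRNAs had 32, 37 and 23 reads in calves and 32, 26 and 19 in adults. The ages overlapped, with 814 ± 150 and 623 ± 195 CPM (SD, n = 3 per age), and the test was not passed (log2 change -0.33 ± 0.32 SE, edgeR adjusted p = 0.545). A single circle, novel_circ_0010883 (chromosome 5, 108705365 to 108712044, exon and intron), held 95.9% of the reads.

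MGLL codes for monoglyceride lipase, which cleaves the last fatty acid from glycerol. It gave 0, 5 and 2 reads in calves and 2, 12 and 2 in adults, spread over 4 circles of which 3 share a start. The ages overlapped and adult 2 held most of the adult reads. ACVR1C codes for ALK7, an activin-type receptor that restrains lipolysis. Its only circle, novel_circ_0009238 (chromosome 2, 38573704 to 38588780), had 3, 9 and 6 reads in calves and 6, 4 and 6 in adults, so the ages overlapped.

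The remaining storage genes were thin. LPL, the lipoprotein lipase that frees fatty acids from blood lipoproteins, had 6, 0 and 7 reads in calves and 0 in every adult library, over 3 circles with 1 shared start (chromosome 8, 67499802). A count of 0 is set against a floor of 3 reads per library (63.4 to 84.2 CPM), which makes the adult level of LPL at least 1.64-fold lower in counting terms, with calf 2 also at 0. ABHD5, the cofactor of adipose triglyceride lipase, had 2, 4 and 4 reads in calves and 4, 0 and 4 in adults. GHR, the growth hormone receptor gene, had 4 reads in all and the droplet coat gene PLIN4 had 2. LEP, LIPE, PNPLA2, PLIN1, PLIN5, CIDEA, CIDEC and AQP7 gave no circRNA under these names. They include leptin, hormone-sensitive lipase and adipose triglyceride lipase, and the glycerol channel aquaporin 7.

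In synthesis, ACSL3 led by reads. It codes for a long-chain acyl-CoA synthetase that works at the endoplasmic reticulum and at growing lipid droplets. Its 10 circRNAs had 101, 84 and 117 reads in calves and 45, 67 and 72 in adults. All adults were below all calves, at 1468 ± 311 against 2707 ± 581 CPM (SD, n = 3 per age). The log2 change was -0.82 ± 0.25 (SE; edgeR adjusted p = 0.0493). This call was lost in 11 of 14 alternative fits and kept in 3, which include the fit without adult 3 (0.0289). It was lost without calf 1 (0.117), calf 2 (0.0563), calf 3 (0.130), adult 1 (0.176) or adult 2 (0.143). DESeq2 (0.0912) and edgeR with no filter on low counts (0.0740) did not make it either.

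Of the ACSL3 reads, 91.6% came from novel_circ_0008886 (chromosome 2, 111866439 to 111867886), a circle of 1 exon and 1 intron that spans 1447 bases. It had 91, 77 and 110 reads in calves and 42, 63 and 62 in adults, with no overlap. The circle fell by 0.81 ± 0.25 on the log2 scale (SE; edgeR adjusted p = 0.0413) and passed in 0 of the 6 fits without 1 library (adjusted p 0.0549 to 0.162). It passed in 2 of 13 alternative fits in all, and not with no filter on low counts (edgeR adjusted p = 0.294). The other 9 ACSL3 circles had 2 to 13 reads each. Of these, 0 were read in all 6 libraries and 2 share the start of novel_circ_0008886.

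SCAP codes for the escort protein that carries SREBP transcription factors to the Golgi for activation, and so sits above the lipid synthesis genes. Its 6 circles had 16, 18 and 19 reads in calves and 6, 8 and 9 in adults. The ages were well apart, at 473 ± 54.1 and 184 ± 36.0 CPM (SD, n = 3 per age). The log2 change of -1.28 ± 0.42 (SE) nevertheless missed the threshold (edgeR adjusted p = 0.0675), and it did so in each of the 14 alternative fits. Most of the calf reads came from 1 circle. novel_circ_0006763 (chromosome 22, 52768561 to 52791585) had 11, 8 and 13 reads in calves and 0 in all 3 adults. It spans 23024 bases, is annotated to 1 intron and no exon, and starts 220 bases before the first annotated SCAP feature.

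Against the floor of 3 reads per library that circle was at least 3.97-fold lower in adults. It was outside the 663 tested circRNAs because of its low counts. In fits without 1 library it could clear the filter through the calves alone, where it is high, so those fits are not used for it. With no filter on low counts it passed (edgeR adjusted p = 0.000235). In the authors' deposited table it is listed among 48 circRNAs lower in adults, with group means of 10.8 in calves and 0 in adults and an adjusted p of 0.0350. The other main circle of the gene, novel_circ_0006766 (52811849 to 52812326), lists 1 exon and no intron. Its span is 477 bases and its spliced length 219 bases. It had 5, 8 and 6 reads in calves and 3, 3 and 9 in adults. There the ages overlapped, with adult 3 the highest library.

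GPAM codes for the mitochondrial acyltransferase that starts glycerolipid synthesis. Its reads were 8, 22 and 16 in calves and 5, 0 and 2 in adults. No adult reached the lowest calf, at 60.6 ± 66.5 against 407 ± 174 CPM (SD, n = 3 per age), a log2 ratio of -2.75. GPAM failed the filter on low counts. It cleared that filter in some fits without 1 library, only through the calves where it is high, so those fits are not used for it. With no filter it passed (edgeR adjusted p = 0.0115). Nearly all reads, 88.7%, came from novel_circ_0007953 (chromosome 26, 32986503 to 32998682), which is annotated to introns.

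LPIN1 codes for lipin 1, the phosphatase that makes diacylglycerol, the step after the acyltransferases. Its 6 circles had 8, 14 and 8 reads in calves and 12, 7 and 10 in adults. The ages overlapped fully, at 264 ± 77.5 and 238 ± 84.8 CPM (SD, n = 3 per age). No single circle dominated, and the leading one held 39.0% of the reads. LPIN1 failed the filter with all 6 libraries, and in the 4 fits without 1 library that it entered its edgeR adjusted p was 0.864 to 0.923.

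Some thin synthesis genes were read at 1 age. ACSL1, another long-chain acyl-CoA synthetase, had 4, 8 and 2 reads in calves and 0 in adults, at least 1.68-fold lower against the floor. AGPAT5, an acyltransferase of the second step, had 2, 2 and 6 reads in calves and 0 in adults, at least 1.25-fold lower. ACSL4, which prefers arachidonate, went the other way with 2 reads in each adult and 0 in calves, so both ages were at or under the floor. The acetyl-CoA carboxylase gene ACACB had 7 reads, all in adult 2. DGAT1 and DGAT2, which close triglyceride synthesis, had 2 reads (calf 3) and 6 reads (adults 1 and 2).

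FASN, SCD, ELOVL6, FADS1, ACSS2, AGPAT3, SREBF2, MLXIPL and PC gave no circRNA. Fatty acid synthase and stearoyl-CoA desaturase, the main enzymes that build and desaturate fatty acids, are among them. ACLY, which supplies acetyl-CoA from citrate, had 6 reads, all in calf 3. ELOVL5, an elongase of polyunsaturated fatty acids, had 6 reads, all in calf 2. SREBF1, whose factor drives lipogenic genes, had 4 reads in calves 2 and 3.

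The largest difference among the 5 tested genes was in oxidation. ACAD10 belongs to the acyl-CoA dehydrogenase family, whose members catalyse the first step of beta-oxidation. Its 8 circRNAs had 101, 66 and 29 reads in calves and 5, 19 and 4 in adults. Every adult was below every calf, though the calves themselves ranged from 814 to 2714 CPM, with a mean of 1732 ± 951 CPM against the adult 211 ± 166 CPM (SD, n = 3 per age). Reads fell by 2.90 ± 0.53 on the log2 scale (SE; edgeR adjusted p = 0.00379). Leaving out any 1 library kept the call (0.00108 to 0.0235 over 6 fits), and limma-voom did not make it (0.0514). The gene cleared the filter on low counts through the calves, where it is high. Adult reads, at 132, 402 and 100 CPM, would not have cleared it alone, whether all 6 libraries were used or 1 was dropped. The call and its repeats over those 6 fits are therefore not independent of the filter. With no filter ACAD10 passed (edgeR adjusted p = 1.49e-11).

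The ACAD10 circles were not the same ones in each library. novel_circ_0003932 (chromosome 17, 57616565 to 57650755) was the most widely read, with 32, 20 and 15 reads in calves and 0, 5 and 4 in adults, without overlap. This circle fell by 2.93 ± 0.63 on the log2 scale (SE; edgeR adjusted p = 0.00755), a call lost without calf 1 (0.0771) and with limma-voom (0.163). It cleared the filter on low counts only through the calves, where it is high, so that call is not independent of the filter. With no filter it passed (edgeR adjusted p = 0.000235). The authors' deposited table lists it as lower in adults too, with group means of 22.7 in calves and 2.72 in adults and an adjusted p of 0.0289. novel_circ_0003934 starts at the same base and ends at 57661639, and it had 35, 23 and 0 reads in calves and 5, 0 and 0 in adults. The remaining 6 circles each appeared in 1 to 3 libraries. One of them, novel_circ_0003936, had 26 reads in calf 1 and 0 in each other library.

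All 8 ACAD10 circles started 13480 to 34901 bases before the first exon or intron that the deposited annotation gives to ACAD10 (57648704). They made up all 8 of the set's circles with more than 10000 bases outside the annotated features (7.62% of 105), a feature of 1.23% of the 12150 circRNAs annotated to 1 gene. Which gene or transcript holds the upstream ends was not tested, and the assignment of these reads to ACAD10 rests on the deposited gene name alone.

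**Figure D3:**
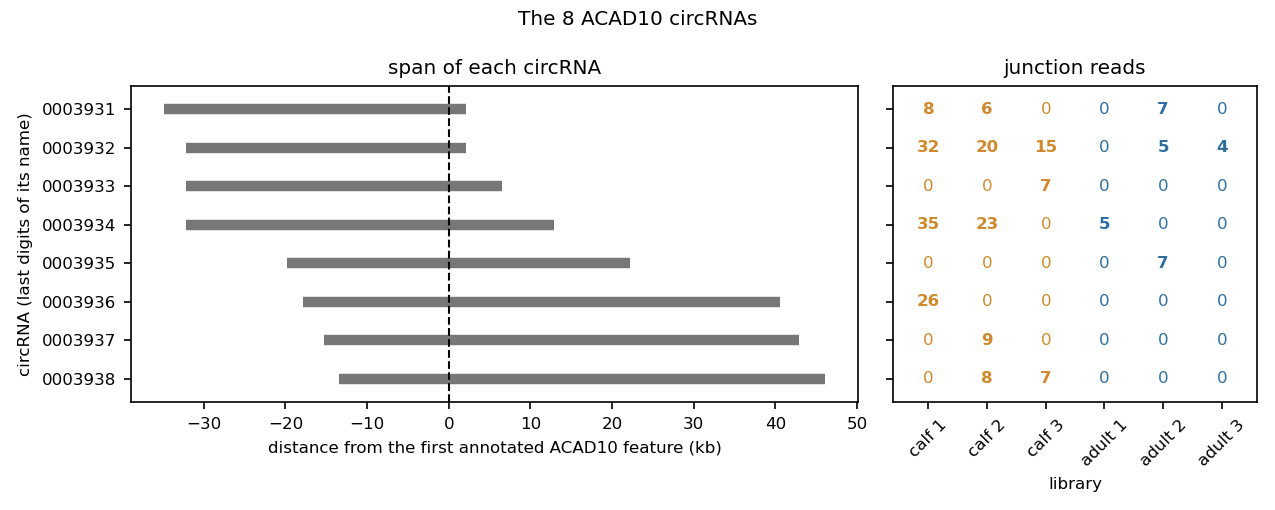
Span of the 8 ACAD10 circles (left, distance in kb from the first annotated ACAD10 feature, dashed line at 0) and their junction reads in each library (right). Each circle begins left of the line, 3 share 1 start, and most reads stand in the calf columns.

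HADHA codes for the alpha subunit of the mitochondrial trifunctional protein, which carries out the steps of long-chain beta-oxidation that follow the first dehydrogenation. Its 4 circles had 25, 27 and 19 reads in calves and 10, 11 and 9 in adults. The ages were clearly apart and the adults close together, at 240 ± 20.4 against 629 ± 83.0 CPM (SD, n = 3 per age). Reads fell by 1.32 ± 0.35 on the log2 scale (SE; edgeR adjusted p = 0.0274). The gene missed the threshold without calf 1 (0.0911), calf 2 (0.109), adult 1 (0.0602) or adult 2 (0.0809), and with DESeq2 (0.112), limma-voom (0.0551) or no filter (0.140).

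Both main HADHA circles pointed the same way. novel_circ_0001312 (chromosome 11, 73264282 to 73267021) had 13, 15 and 10 reads in calves and 5, 7 and 4 in adults, a log2 change of -1.30 ± 0.49 (SE) that missed the threshold (edgeR adjusted p = 0.0841). The longer novel_circ_0001311 (73261253 to 73272178), which contains the first, had 12, 7 and 6 reads in calves and 5, 2 and 5 in adults. In each circle the lowest calf stood above the highest adult. HADHB, the partner subunit, gave 1 circle with 2 and 4 reads in adults 1 and 3 and 0 reads elsewhere.

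OGDH codes for the E1 subunit of 2-oxoglutarate dehydrogenase, an enzyme of the citric acid cycle, which oxidises the acetyl-CoA made by beta-oxidation. It had 19, 11 and 7 reads in calves and 5, 9 and 5 in adults. The ages met closely, with the lowest calf at 197 CPM and the highest adult at 190 CPM. OGDH failed the filter on low counts. It cleared that filter in some fits without 1 library, only through the calves where it is high, so those fits are not used for it. With no filter it did not pass.

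ACADL, the long-chain acyl-CoA dehydrogenase gene, stood apart from the genes above. It had 2, 6 and 0 reads in calves and 2, 23 and 16 in adults. Adults 2 and 3 were above all calves and adult 1 was among them, so the ages overlapped at 68.5 ± 76.9 and 313 ± 230 CPM (SD, n = 3 per age). ACADL failed the filter on low counts. It cleared that filter in some fits without 1 library, only through adults 2 and 3 where it is high, so those fits are not used for it. With no filter it did not pass. Most reads came from novel_circ_0009526 (chromosome 2, 98438495 to 98440267), with 2, 6 and 0 reads in calves and 2, 20 and 12 in adults.

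CPT1A, the carnitine palmitoyltransferase that admits long-chain fatty acids to mitochondria, had 2, 5 and 7 reads in calves and 0, 7 and 5 in adults over 6 circles. Its ages overlapped. CPT2, the inner-membrane partner enzyme, had 7, 0 and 0 reads in calves and 0, 2 and 8 in adults. ETFDH, which passes electrons from beta-oxidation to the respiratory chain, had 9 reads from 3 circles with 1 shared start. PPARA, the nuclear receptor gene of fatty acid oxidation, had 2, 0 and 5 reads in calves and 0, 2 and 0 in adults. CPT1B, ACADVL, HADH and PPARD gave no circRNA.

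In all, 25 genes had 2 to 18 reads, together 164, of which 107 were in calves and 57 in adults. Of the 25, 14 were read in calves only, against 26.1% of host genes of that depth. Those read in adults only were 6, against 35.0% of such host genes, and 5 were read at both ages. None of the 25 passed the filter on low counts, and those named above were named after their values were seen. The others were AGPAT2, FADS2, LPIN2 and ME1 of synthesis, with 2 to 5 reads each, and ACADM, ACADSB, ECHDC1 and MCU of oxidation, with 2 to 4 reads each.

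**Figure D4:**
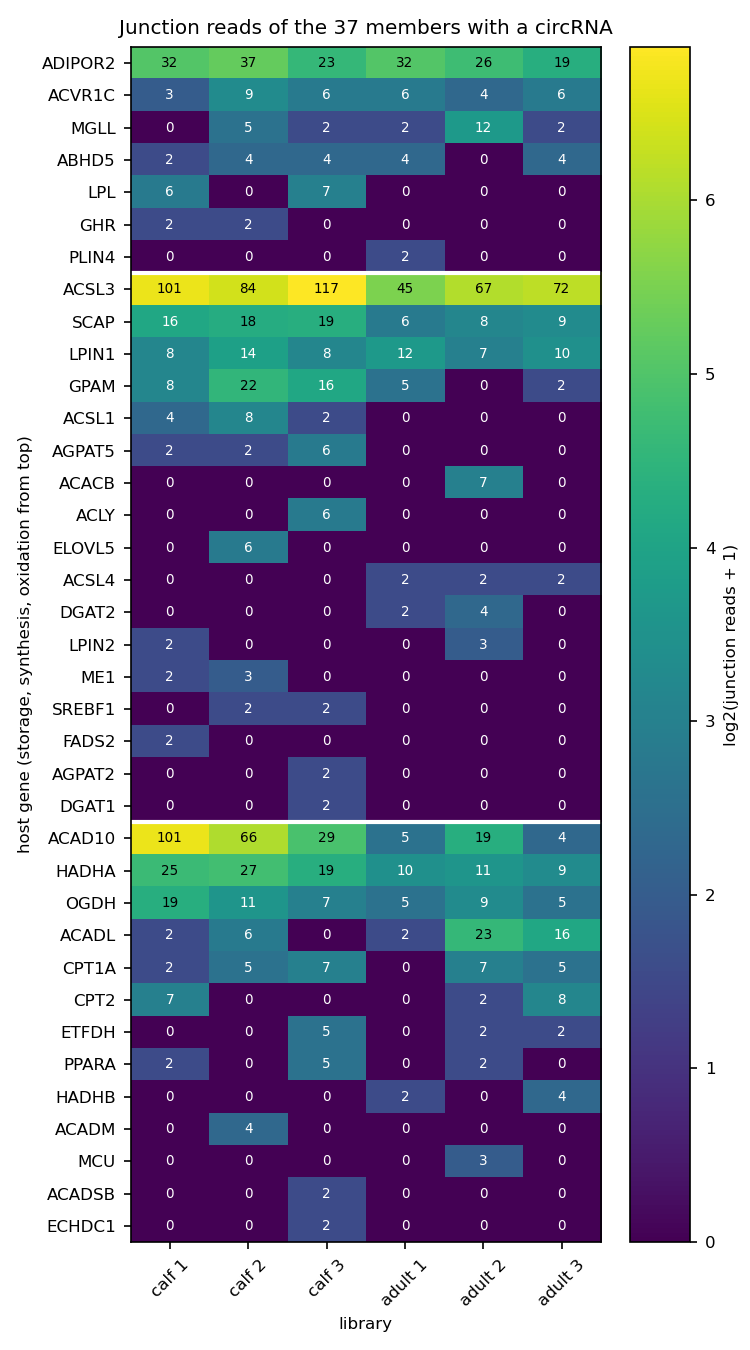
Junction reads of the 37 genes with a circRNA (rows, grouped by role) in the 6 libraries (columns), as numbers and as colour on a log2(reads + 1) scale. ACSL3 and ACAD10 reach 117 and 101 reads in a calf library, while 25 genes total 18 reads or fewer.

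The form of the circles was set beside that of other genes, without a test. Of the 105, 61 (58.1%) were read in 1 library only, against 56.4% of the 12150 circRNAs annotated to 1 gene, and 7 (6.67%) were read in all 6 libraries, against 8.91%. By the deposited annotation 69 listed exons and introns (65.7% against 62.6%), 28 introns only (26.7% against 28.4%) and 8 exons only (7.62% against 9.0%). The intron label means that no exon is listed. Such a circle can list several introns (8 in novel_circ_0013333 of ME1) and need not lie within 1 intron. The median span was 4721 bases against 6075.5, and the median total was 4 reads in both. Of the 26 genes with 2 or more circles, 18 had at least 2 circles with a common start or end, so such circles are not independent of each other.

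Junction reads were next set beside the non-junction reads that the deposited annotation lists for each circle and library. The sources used here give no definition of a non-junction read, and the labels do not make clear whether these libraries were digested with RNase R, which removes linear RNA. The 7 circles read in all 6 libraries entered this test: those of ACSL3, ACVR1C, ADIPOR2 and OGDH, 2 of HADHA and the exonic one of SCAP. By limma on log2 ratios, 0 of the 7 passed (3 at an unadjusted p under 0.05), where 0.748% of the 1070 circRNAs tested passed, 0.467% as lower and 0.280% as higher. Over all circles of this test, the library medians of junction reads were 4.48 to 6.88% in calves and 5.36 to 8.23% in adults. Non-junction reads over these circles summed to 416266 to 542630 in calves and 333248 to 629319 in adults, and the ratio test centres each library, while the reads printed next are unscaled.

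The ACSL3 circle outnumbered its non-junction reads in calves. It made up 64.1, 63.1 and 73.3% of junction plus non-junction reads there and 45.7, 54.3 and 41.3% in adults, with no overlap. The log2 change of the ratio was -1.28 ± 0.54 (SE), which did not pass (limma unadjusted p = 0.0291, adjusted p = 0.290). Its non-junction reads were 51, 45 and 40 in calves and 50, 53 and 88 in adults, which overlapped between the ages.

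For ADIPOR2 and ACVR1C the mean share was higher in adults. The ADIPOR2 circle made up 1.21, 2.01 and 1.24% in calves and 5.06, 2.19 and 2.96% in adults (log2 change of the ratio 1.09 ± 0.43 SE, limma adjusted p = 0.259). Its non-junction reads were 2453, 1808 and 1832 in calves and 544, 1073 and 622 in adults, with no overlap, while its junction reads overlapped. The ACVR1C circle made up 0.633, 1.35 and 3.90% in calves and 5.04, 3.88 and 11.8% in adults, where calf 3 reached the level of adult 2. Its change of 2.0 ± 0.60 (SE) did not pass (limma adjusted p = 0.0966), and it passed without calf 3 (2.58, adjusted p = 0.00734).

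For the 2 HADHA circles non-junction reads, like junction reads, were lower in every adult library. novel_circ_0001311 had 502, 388 and 346 non-junction reads in calves and 122, 246 and 147 in adults. novel_circ_0001312 had 158, 143 and 83 in calves and 36, 66 and 38 in adults. The log2 changes of the ratio were 0.21 ± 0.53 and 0.16 ± 0.50 (SE; limma adjusted p 0.903 and 0.919). For OGDH the change was 0.21 ± 0.49 (SE; adjusted p = 0.895).

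**Figure D5:**
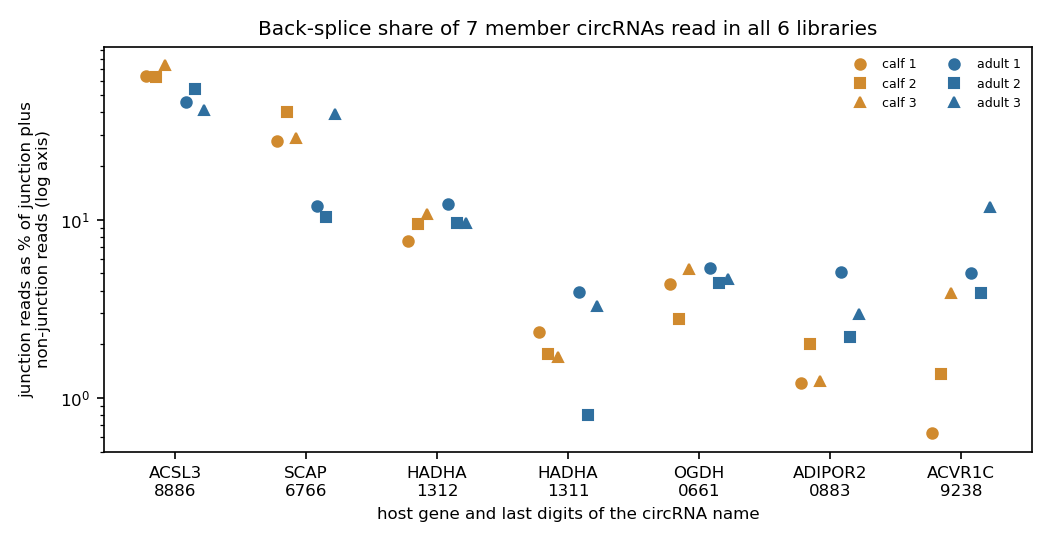
Junction reads as a percentage of junction plus non-junction reads (log axis) for the 7 circles read in all 6 libraries. Points are libraries. The ACSL3 circle stands at 41.3 to 73.3% with adults below calves, and ACVR1C and ADIPOR2 have higher adult points.

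Other genes of lipid metabolism, 94 on a separate list, were read in 31 cases and tested in 8. Of the 8, 4 were lower in adults, which were ACACA, PPARG, PDE3B and PPARGC1A, and SCP2, a sterol carrier gene, was higher (edgeR quasi-likelihood test). Over all 719 tested host genes 6.54% passed as lower and 5.84% as higher. ACACA, PDE3B and PPARGC1A cleared the filter on low counts through the calves, where they are high, and their adult reads alone would not have. The count of lower genes and the test of ACACA below are therefore not independent of the filter. This list, too, was drawn up with earlier results of these data known. ACACA makes the malonyl-CoA that is both the building block of fatty acids and the inhibitor of CPT1A. Calf libraries held 40, 43 and 23 of its reads and adult libraries 3, 2 and 5, and it fell by 3.44 ± 0.46 on the log2 scale (SE; edgeR adjusted p = 0.0015). Summed over the 94 genes, reads were 266 to 370 in calves and 261 to 376 in adults, so the ages overlapped, unlike the sums of the synthesis and oxidation genes above.

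Markers of other cells differed between the ages in the same libraries. Adipocyte markers were read for 4 of 10 genes (LPL, also on the storage list, is 1 of them), with 93 to 142 reads in calves and 114 to 123 in adults. PLIN1, CIDEC, FABP4, LEP, LIPE and AQP7 were at 0 under these names. Under its older symbol PLIN, PLIN1 had 15 reads in calves and 3 in adults, which are outside this sum. The 2 tested adipocyte markers differed in direction: PPARG fell, as given above, while CD36, a fatty acid transporter gene, had 34, 50 and 56 reads in calves and 90, 76 and 105 in adults (log2 change 0.87 ± 0.27 SE, edgeR adjusted p = 0.0535), so a like sum does not mean like members. Immune cell markers were read for 5 of 12 genes, with 2 to 26 reads in calves and 151 to 481 in adults, and PTPRC, MRC1, CSF1R, CD74, LYZ, MS4A1 and CD3E were at 0. Nearly all adult reads came from ADGRE1 (2, 9 and 16 in calves, 44, 72 and 457 in adults) and CD5L (0, 3 and 6 against 140, 77 and 21). The immune sum therefore does not speak for the other markers of that list. Skeletal muscle markers (6 of 17 read) had 0 to 4 reads in every library other than adult 2, which had 301. Fibroblast and matrix markers (6 of 10 read) had 5 to 10 reads in calves and 39 to 48 in adults, with COL1A2, COL3A1, PDGFRA and LUM at 0. Of these reads VCAN alone held 2, 0 and 0 in calves and 39, 22 and 24 in adults. Endothelial markers (7 of 8 read) had 46 to 53 reads in calves and 62 to 86 in adults. Of the 2 tested endothelial markers neither passed, and their values differed in direction. ENG had a log2 change of 0.75 ± 0.48 and FLT1, lower in CPM in every adult library, -0.46 ± 0.33 (SE; edgeR adjusted p 0.346 and 0.405). The part of these cell types in the results above was not tested.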

How the data were processed

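The authors deposited counts of back-splice junction reads for each circRNA and library, per the file headers. No count of 1 occurs and the smallest nonzero count is 2. A column headed TPM, as deposited, holds CPM of all junction reads with no length term. The deposited annotation gives positions, gene names, features, and junction and non-junction reads. The authors' deposited comparison holds group means (a scaled signal), log2 fold changes and p-values. Per the submitters' processing notes, Trim Galore, TopHat2 2.0.14, TopHat and Cufflinks were used. Which program called the circRNAs, and on which genome build, is not given in the sources; coordinates stand as deposited.

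Genes and lists were chosen with earlier results of these data known. Reads were summed per gene over circRNAs annotated to 1 gene. Ages were compared with edgeR 4.0.16 in R 4.3.3 (filterByExpr, TMM, quasi-likelihood, Benjamini-Hochberg over all tested features, threshold 0.05). Log2 changes are adult over calf. Ratios were tested with limma 3.58.1 on log2((junction + 0.5)/(non-junction + 0.5)), centred on each library's median, for circRNAs present in each of the 6 libraries and averaging 10 or more non-junction reads. DESeq2 1.42.0, limma-voom, other filters and scalings, a replicate block and fits without 1 library were alternatives. Genes tested or with at least 20 reads were described in full, the others mainly by counts. Floors are 3 reads per library and cover counting error only. The scripts were tested on simulated data.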

Additional observations from a re-analysis of the deposited data

How the results depend on the processing

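The number of circRNAs of the set that passed was 2 with all 6 libraries. It was 2 with total counts in place of TMM, 1 with DESeq2, 1 with limma-voom, 4 with no filter on low counts, 1 with a mean of at least 10 counts, and 0 to 2 without 1 library. The ACSL3 circle passed in 0 of the 6 fits without 1 library. Where 2 passed there, 1 was novel_circ_0006763 of SCAP or novel_circ_0003934 of ACAD10. Both entered those fits through the calves alone, where they are high, so these counts do not show the main calls holding. The number of host genes that passed was 3, where 89 of all 719 tested passed. It was 1 with DESeq2 (78 of 719) and 1 with limma-voom (66 of 719). It was also 1 without calf 3 and adult 3 together (122 of 788), a setting chosen after seeing the data. In the other settings it was 2 or 3, with 2 where no filter was used (132 of 4700). Without 1 library it was 1 to 3, the lowest without calf 2 (55 of 814) or adult 2 (75 of 836). Without calf 1 or adult 1 the count of 2 included GPAM, which cleared the filter only through the calves. ACAD10 was in every count without 1 library, and its adult reads alone would not have cleared the filter there either. The ratio test called 0 of the set in each setting, with 1 exception: 1 (ACVR1C) without calf 3, so the range without 1 library was 0 to 1. Without calf 3 that test called 37 of all 1073 circRNAs. Without 1 library the log2 ratio of the summed reads was -0.62 to -0.28 for storage, -1.12 to -0.90 for synthesis and -1.68 to -1.07 for oxidation. Without its leading gene, synthesis stood at -1.32 and oxidation at -0.49. Each tested host gene and circRNA kept its direction in each alternative that tested it. The ratio of OGDH reversed to -0.12 without calf 2 (range without 1 library -0.12 to 0.44), and that of novel_circ_0001311 of HADHA to -0.16 without adult 3 (range -0.16 to 0.76) and to -0.36 without calf 3 and adult 3 together. The cause was not tested. With the replicate number as a block, 0 circRNAs, 2 host genes and 0 ratios of the set passed. Over all features that block gave 56 of 663 circRNAs, 101 of 719 host genes and 2 of 1070 ratios. Correlations of the deviations of same-numbered samples were -0.05 to 0.07 over circRNAs and -0.02 to 0.13 over host genes, so the numbers were not taken to pair the samples. Depth limits the set: 25 of the 37 genes read had 2 to 18 reads and were fitted only with no filter.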

Other observations

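The gene of perilipin 1, the main coat protein of the fat cell's lipid droplet, is on the list as PLIN1, and the deposited annotation has its older symbol PLIN. Under that symbol stood 4 circRNAs with 18 reads. Calf libraries 1 to 3 held 3, 4 and 8 of these reads and adult libraries 0, 3 and 0. These reads are outside the sums above, which follow the listed symbols.

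In the authors' deposited gene ontology table, SCAP stood among 8 of 58 host genes under lipid metabolic process (852 of 18393 background genes, corrected p-value of 1 by the authors' test). ACAD10 stood among 11 of 58 under oxidation-reduction process (816 background genes, corrected p-value of 0.091215 by the authors' test). The non-junction reads of the SCAP circle read in calves only were 495, 269 and 153 in calves 1 to 3.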
